A study of Mus musculus with 6 samples.

Results

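The 10 genes described here take up choline or use it, and were read on arrays of primary mammary epithelial cells from Plk2 -/- and wild-type mice. They are the high-affinity choline transporter gene Slc5a7, the acetylcholine genes Chat, Slc18a3 and Ache, the transporter genes Slc44a1, Slc44a2 and Slc44a4, and the phosphatidylcholine synthesis genes Chka, Chkb and Pcyt1a. All gene probes whose transcript accession belongs to these genes were taken, which gave 16 probes of the 55681 on the array and 10 of its 20145 named genes. The set was drawn up round Slc5a7, whose difference between the groups was known beforehand. The differences of the members are therefore descriptions of these arrays, given without a test.

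The Plk2 null group had 3 samples, labelled Plk2 -/-, and the wild-type group had 3 samples. All were female mice aged 8 weeks of mixed 129sv/C57Bl6 strain, whose mammary glands were dissociated to primary epithelial cells, and each sample was hybridised to its own one-colour Agilent array. How the Plk2 allele was made, whether glands were pooled and whether cells were cultured stay unstated in the sources used. Nothing states that the samples are separate animals, so the errors measure the spread between samples. The level used is the log2 processed signal minus the 75th percentile of the array, so that 0 lies at that percentile. Levels of different probes are not comparable with each other. A probe was well above background where the scanner software had set that flag for at least 50% of its spots.

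The share of probes well above background was 51.2% to 54.7% on null arrays and 50.2% to 52.2% on wild-type arrays. Plk2 averaged -7.07 ± 0.13 in null cells and 2.25 ± 0.11 in wild-type cells (SD, n = 3 each), and no null array had it well above background. All 10 epithelial markers checked, among them Epcam, Cdh1 and Krt8, were measured. Their summed level was 2063 to 2692 times the 75th percentile on null arrays against 2146 to 2201 times on wild-type arrays. Krt18 (means 10.21 in null and 10.15 in wild-type cells) and Krt19 (8.89 and 8.96) made up most of that sum. The basal keratin genes Krt14 and Krt5 differed by 0.91 and 0.96 (limma adjusted p = 0.179 and 0.247), without overlap for Krt14 and with overlap for Krt5. Null sample 3 stood apart from the rest, with a score of -73.97 on principal component 2 (23.5% of variance), where the other arrays scored -2.96 to 26.5, so some results are also given without it. The null arrays occupied slide row 2 and the wild-type arrays slide row 1, so that genotype and slide row cannot be told apart. In these bulk samples fewer cells of a type and less RNA per cell cannot be told apart either.

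Choline is a nutrient that animals make too little of and that cells take up through membrane carriers. Most of it is phosphorylated by choline kinase, activated with CTP and built into phosphatidylcholine, the main membrane phospholipid, a route known as the Kennedy or CDP-choline pathway. Cholinergic neurons instead draw choline in through the transporter CHT1 and join it to an acetyl group to form acetylcholine. The lactating mammary gland takes up choline from blood and secretes choline and its phosphorylated forms in milk.

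The start regions of 3 cholinergic genes are shown because the set was drawn up round Slc5a7, and Chat and Slc18a3, which share a locus, serve the same use of choline. Each runs from 250 bases before the annotated start to 50 bases after it, on the minus strand, from RefSeq on GRCm38.p6, a build other than the mm9 of the array design. Capitals mark matches on either strand to the TATA box (TATAAA), the CCAAT box (letters CCAAT), the GC box (GGGCGG) or the E-box (CACGTG), none of which overlap here. The Slc5a7 region is chr17:54298985-54299284, that of Chat chr14:32465860-32466159 and that of Slc18a3 chr14:32464801-32465100.
Slc5a7: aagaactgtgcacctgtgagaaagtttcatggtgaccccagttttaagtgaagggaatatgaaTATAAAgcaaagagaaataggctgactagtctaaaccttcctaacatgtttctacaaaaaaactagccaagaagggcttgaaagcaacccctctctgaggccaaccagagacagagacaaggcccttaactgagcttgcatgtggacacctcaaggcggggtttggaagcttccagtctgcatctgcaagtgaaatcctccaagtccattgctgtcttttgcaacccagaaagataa
Chat: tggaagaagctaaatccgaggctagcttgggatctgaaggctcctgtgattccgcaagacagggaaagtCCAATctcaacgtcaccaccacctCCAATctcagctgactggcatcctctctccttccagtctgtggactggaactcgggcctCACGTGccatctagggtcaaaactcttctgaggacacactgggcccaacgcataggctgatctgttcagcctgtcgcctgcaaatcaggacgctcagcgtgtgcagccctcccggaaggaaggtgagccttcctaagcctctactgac
Slc18a3: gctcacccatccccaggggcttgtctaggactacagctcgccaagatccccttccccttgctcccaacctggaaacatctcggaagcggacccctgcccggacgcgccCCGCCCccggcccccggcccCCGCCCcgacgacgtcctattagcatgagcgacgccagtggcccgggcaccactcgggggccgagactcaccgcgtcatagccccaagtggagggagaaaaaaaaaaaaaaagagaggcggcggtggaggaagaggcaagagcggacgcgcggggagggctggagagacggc

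The Slc5a7 region held 1 CpG and 44.7% G and C, against 27 CpG and 67.0% in the Slc18a3 region, 10 CpG and 55.7% in the Chat region and medians of 7 CpG and 52.7% over 32851 such regions. Slc5a7 had a single TATAAA, at -187 from its start, a motif that 13.6% of all regions hold. Chat had 2 CCAAT matches (37.4% of regions hold one) and 1 CACGTG match (7.2%), and Slc18a3 had 2 matches to GGGCGG (35.7%). The Slc18a3 gene lies inside the annotated Chat gene on the same strand, with 1059 bases between the 2 starts. The matches are letters in a window and were not tied to any factor.

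Slc5a7 encodes CHT1, the sodium-dependent high-affinity choline transporter that supplies cholinergic nerve endings. The first of its probes, both drawn to NM_022025 on chromosome 17, read -2.17, -2.25 and -2.04 in null samples 1 to 3, against -6.75, -6.62 and -7.17 in wild-type samples 1 to 3. The null arrays lay within a narrow band and the groups were 4.37 apart at their nearest points. In processed signal the same spots read 68.8, 60.3 and 58.5 in null samples and 2.41, 2.55 and 1.96 in wild-type samples. The probe was well above background on all 3 null arrays and on no wild-type array, so that the wild-type values are only a bound. Measured against the lowest signal well above background on each wild-type array, the null level of Slc5a7 was 5.61-fold higher. That signal is no strict limit. On wild-type array 2, Slc18a3 read -4.35 without the flag, above the lowest flagged signal of -4.39.

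The second Slc5a7 probe was dimmer in null cells. It read -5.38, -5.27 and -3.78 in null samples, against -6.37, -6.57 and -7.01 in wild-type samples. The groups did not overlap here either, but only 1 of the 3 null arrays was well above background, which was null sample 3, and no wild-type array was. The null mean was not above the lowest signal well above background, so no fold is given for it. Both probes read higher in null cells, and the null array that stood out on the second probe was level with the others on the first.

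The difference between the means as read on the first probe, 4.70, takes wild-type values below background at face value and so is no measured size. It was 0.96 with normexp correction and an offset of 50, which lifts dim spots, and 1.09 in the values of the authors' deposited table. It was positive in all 16 alternatives that kept the probe. They reuse the arrays on which the set was chosen, so the shared sign adds no support.

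**Figure D1:**
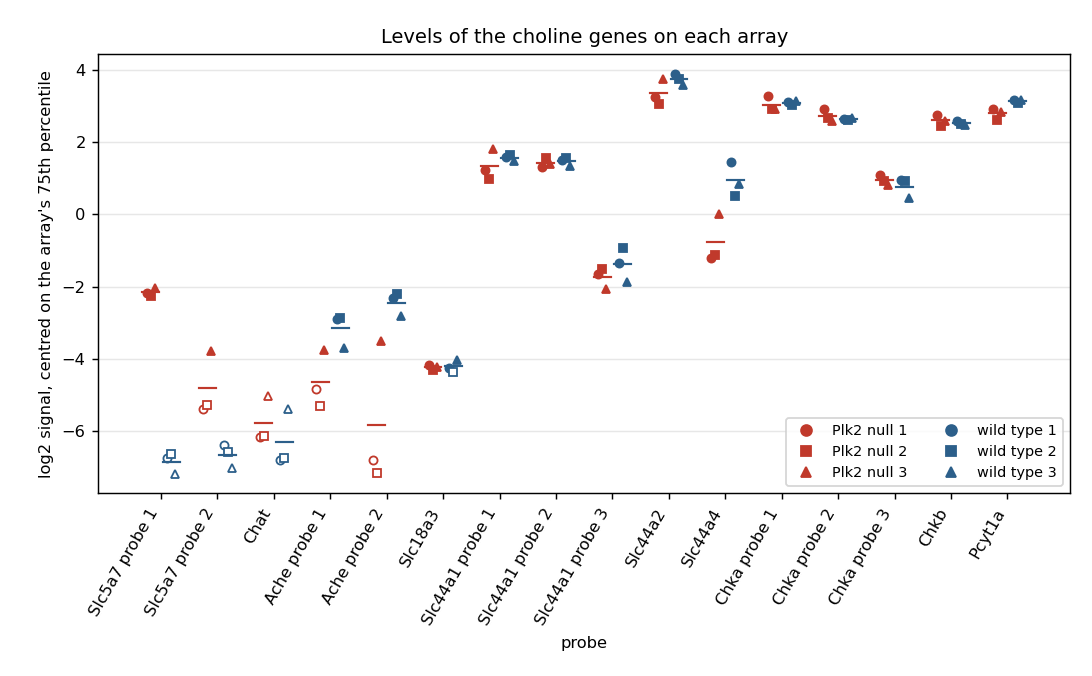
Log2 level, centred on each array's 75th percentile (vertical axis), of the 16 probes of the choline genes (horizontal axis) in Plk2 null samples (red) and wild-type samples (blue); symbols mark samples 1 to 3, filled where well above background and open where not, and bars are means of 3. The groups are 4.37 apart for the first Slc5a7 probe, while those of Chka, Chkb, Slc44a1 and Slc18a3 overlap.

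The genes that would use choline taken up by CHT1 for acetylcholine did not show the pattern of Slc5a7. Chat, which encodes choline acetyltransferase, the enzyme that makes acetylcholine, read -6.17, -6.14 and -5.03 in null samples and -6.79, -6.74 and -5.40 in wild-type samples. Its single probe stayed below that flag on each of the 6 arrays, so it gives no fold and did not enter the fit. Slc18a3 encodes the vesicular acetylcholine transporter, which loads the transmitter into synaptic vesicles. It read -4.16, -4.30 and -4.22 in null samples and -4.24, -4.35 and -4.03 in wild-type samples. The groups overlapped, near the lower limit of detection (3 of 3 null and 2 of 3 wild-type arrays well above background). The difference was -0.02 (SE 0.10), and 0.27 with spike-in scaling, which moved all entries upwards in null cells.

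Neuron markers, a list of 10 genes, were not higher as a whole in null cells. Of these, 6 were tested, with 2 positive and 4 negative differences and a median of -0.28, and their summed level was 2.15 to 3.60 on null arrays and 3.29 to 4.36 on wild-type arrays. Among the rest, Isl1, a transcription factor gene of motor neurons, Nefm and Syt1 were not measured on enough arrays to be tested.

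Ache encodes acetylcholinesterase, which splits acetylcholine into choline and acetate. Both of its probes were drawn to NM_009599 on chromosome 5 and read lower in null cells. The first read -4.83, -5.31 and -3.74 in null samples and -2.90, -2.86 and -3.69 in wild-type samples. Null sample 3 lay within 0.05 of wild-type sample 3, and the other 2 null samples lay over a log2 unit below every wild-type sample. The second read -6.81, -7.16 and -3.51 in null samples and -2.31, -2.22 and -2.82 in wild-type samples, with the same null sample nearest to wild type. Both probes were well above background on all 3 wild-type arrays and, among the null arrays, on that of sample 3 alone. Null samples 1 and 2 were set at the lowest signal well above background on their arrays, or at the probe's own value where higher. Ache was then 3.68-fold lower in those 2 samples than in wild-type cells on the first probe and 6.33-fold lower on the second. As for Slc5a7, that signal is no strict limit. Over all 3 null samples the means as read differed by -1.48 and -3.38, which take the values below background at face value. With normexp correction and with the deposited table's values the first was -0.42 and -0.39.

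The 3 transporter genes of the Slc44 family, whose products carry choline with lower affinity and without sodium, differed from one another. Slc44a4, the member known for thiamine pyrophosphate uptake in the intestine, read -1.20, -1.11 and -0.0007 in null samples and 1.46, 0.51 and 0.85 in wild-type samples. Every null sample was below every wild-type sample, and null sample 3 was again nearest to wild type. The difference was -1.71 (SE 0.48), a 3.28-fold lower level in null cells, and -2.10 without null sample 3; over the 17 alternatives it ran between -2.10 and -1.42.

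Slc44a2, which encodes the choline transporter-like protein that in humans carries a neutrophil antigen, read 3.25, 3.07 and 3.74 in null samples and 3.89, 3.75 and 3.58 in wild-type samples. The groups overlapped through null sample 3 alone. The difference was -0.39 (SE 0.22), -0.58 when null sample 3 was left out, and -0.09 under spike-in scaling. Slc44a1, the widely expressed choline carrier of plasma membrane and mitochondria, had 3 probes on chromosome 4, which differed by -0.24 (SE 0.26), -0.05 (SE 0.10) and -0.36 (SE 0.32). All 3 had overlapping groups. Its brightest probe read 1.23, 0.97 and 1.82 in null samples and 1.58, 1.66 and 1.49 in wild-type samples, and null sample 3 was the highest of all 6. Leaving that sample out gave -0.47 for this probe, and spike-in scaling gave 0.06.

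The genes of phosphatidylcholine synthesis had narrow ranges on these arrays. Chka and Chkb encode the choline kinases that trap choline as phosphocholine in the first step of the CDP-choline pathway. The brightest of 3 Chka probes read 3.29, 2.91 and 2.93 in null samples and 3.10, 3.04 and 3.13 in wild-type samples. The groups overlapped on all 3 Chka probes, whose differences were -0.05 (SE 0.13), 0.09 (SE 0.11) and 0.18 (SE 0.18). The single Chkb probe read 2.76, 2.45 and 2.60 in null samples and 2.58, 2.50 and 2.48 in wild-type samples, and again the groups overlapped (difference 0.08, SE 0.09).

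Pcyt1a encodes the alpha form of CCT, the enzyme that activates phosphocholine with CTP and sets the pace of the pathway. It read 2.93, 2.63 and 2.84 in null samples and 3.16, 3.08 and 3.16 in wild-type samples. The groups did not overlap, with a gap of 0.15, and the difference was -0.34 (SE 0.09), 1.26-fold lower in null cells. It was -0.04 with spike-in scaling. Under that scaling the median over all entries was 0.32, against 0.03 with the main scaling, and it gave 0.25 for the brightest Chka probe and 0.38 for Chkb.

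**Figure D2:**
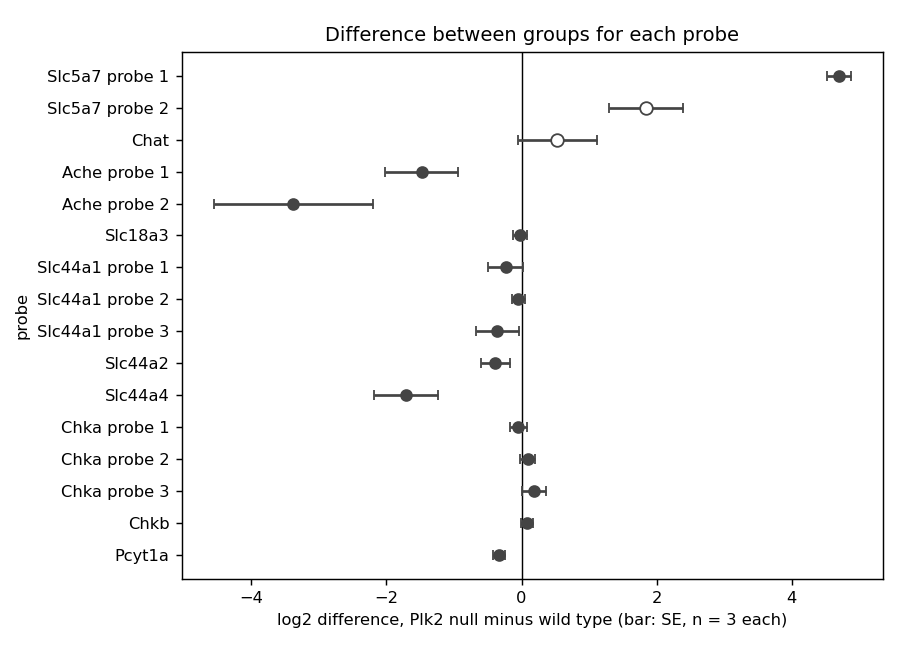
Log2 difference, Plk2 null minus wild type (horizontal axis), of each of the 16 probes (vertical axis), with bars for the SE from 3 samples in each group; open circles are the second Slc5a7 probe and Chat, which were well above background on fewer than 3 arrays. Slc5a7 lies to the right and Ache and Slc44a4 to the left, where the positions of Slc5a7 (wild-type arrays) and Ache (null samples 1 and 2) rest on values below background and are no measured sizes, and the choline kinases lie near 0.

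Of the 10 genes, 9 had a probe that 3 or more of the 6 arrays measured well above background, and entered the fit across all entries. Those 9 had 2 positive and 7 negative differences with a median of -0.24, beside a median of 0.03 and 52.4% positive over all 24609 entries. The fit called 1 of them, Slc5a7, higher, where 0.219% of all entries were called higher, and 0 lower, where 0.333% were (limma, adjusted p under 0.05; 0.553% in either direction). Because the set was chosen with that value known, nothing is read from the count. Slc5a7 also passed the filter through the null arrays alone. Its call rests on wild-type values below background and is no test of its difference. The groups did not overlap for 1 higher and 3 lower members, namely Slc5a7, Ache, Slc44a4 and Pcyt1a, beside 19.2% and 12.1% of all entries, or 31.3% in either direction.

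Markers of other cell types were read in the same samples, and in every list 0 passed an adjusted p of 0.05 (limma). All 10 lymphocyte markers had negative differences (median -2.44), each without overlap and with an unadjusted p under 0.05, with summed levels, in the same unit as above, of 5.91, 5.81 and 12.3 on null arrays 1 to 3 and 24.5 to 42.4 on wild-type arrays. Null sample 3 was thus the highest null sample for the sum of these markers, as it was for Ache and Slc44a4. The same held for the sum of every other list read, epithelial markers included, except those of neuron markers and cell division genes. Schwann cell markers had 7 of 8 negative differences (median -0.65), with summed levels of 39.5 to 65.4 on null arrays and 66.1 to 90.1 on wild-type arrays, and null sample 3 highest among the null arrays. Erythroid markers, of which 3 of 8 were tested, had a median of -0.0004, and skeletal muscle markers, of which 5 of 8 were tested, a median of -0.25. In these lists and in that of adipocytes 0 markers had an unadjusted p under 0.05 and 0 had groups without overlap. Markers of fibroblasts and endothelium were negative in 8 of 8 genes each (medians -0.38 and -0.37), those of macrophages in 6 of 7 (-0.49), and those of adipocytes in 3 of 7 (0.23). Cell division genes were positive in 8 of 8. Their summed levels were 27.3, 87.2 and 28.7 on null arrays 1 to 3 and 8.28 to 12.5 on wild-type arrays, so null sample 2 alone sets the top. The part of these cells in the differences of Slc5a7, Ache and Slc44a4 was not tested.

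**Figure D3:**
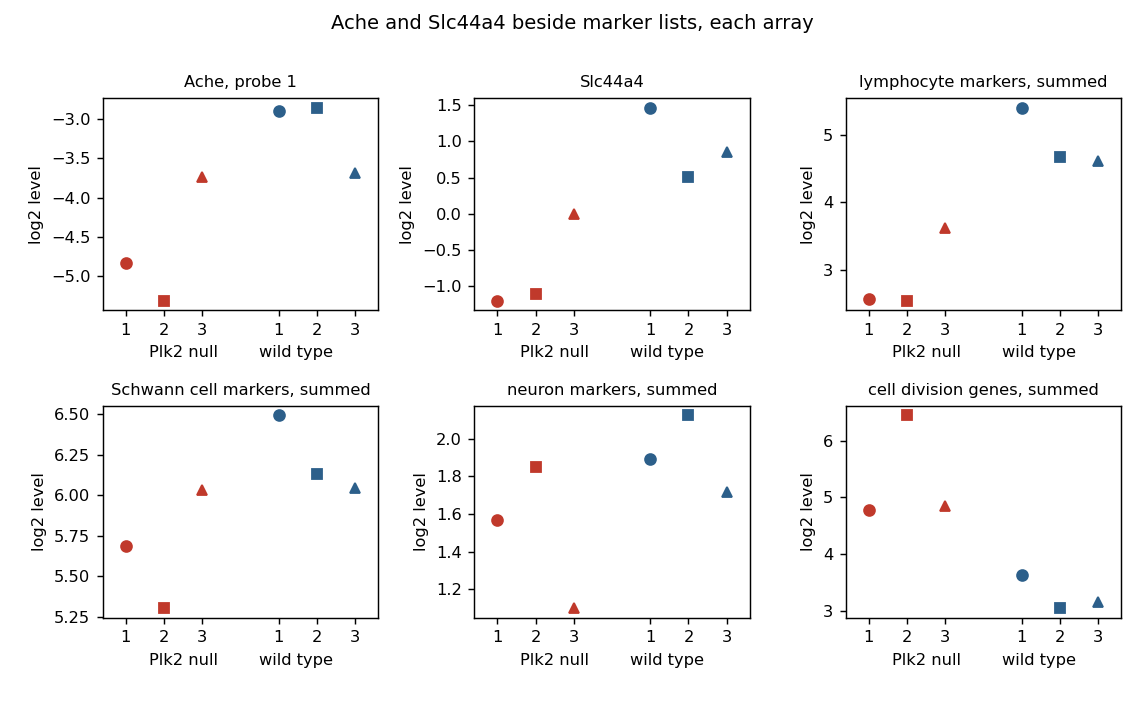
Log2 level on each array (vertical axes) of the first Ache probe, of Slc44a4 and of the summed signal of 4 marker lists, for Plk2 null samples 1 to 3 (red, left) and wild-type samples 1 to 3 (blue, right). Null sample 3 is the highest null sample for Ache, Slc44a4 and the summed lymphocyte and Schwann cell markers, as for the lists not shown. It is the lowest for the summed neuron markers, which Snap25 largely sets, but not for each marker of that list.

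A further 83 genes of choline transport and use, in 7 lists chosen by function, were set beside the members. Of these, 57 entered the fit. None passed an adjusted p of 0.05 over all entries (limma; 16 of the 57, or 28.1%, had an unadjusted p under 0.05, beside 22.8% of all entries), with 33 positive and 24 negative differences and a median of 0.10. The count was also 0 without null sample 3. In this fit simulated differences of 1 log2 unit were recovered in 22% of cases and those of 2 in 68%, so smaller differences were mostly not detectable with 3 arrays a group. The genes named below come from those with the 3 smallest p-values in each list, and none of their differences passed the threshold.

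Genes that break down acetylcholine or anchor the enzyme differed in both directions. Of the 4 tested, 3 were negative, with a median of -0.53, or -0.81 without null sample 3. Colq, whose collagen-like product tethers acetylcholinesterase to the basal lamina, read -3.67, -2.44 and -2.99 in null samples and -0.996, -2.28 and -1.74 in wild-type samples (difference -1.36, SE 0.42; limma adjusted p = 0.134). Prima1, the membrane anchor of the same enzyme, differed by -0.98 (SE 0.48; limma adjusted p = 0.277) with overlapping groups. Bche, which encodes the related butyrylcholinesterase, read -0.17, 0.12 and -0.07 in null samples and -0.70, -1.04 and -0.62 in wild-type samples, the opposite direction to Ache (difference 0.75, SE 0.17; limma adjusted p = 0.0891).

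Most acetylcholine receptor genes were too dim to test. Of 21 muscarinic and nicotinic genes, 16 were well above background on fewer than 3 arrays, and the 5 tested had a median of -0.22. Chrm3, the muscarinic receptor that drives secretion in glands, read -3.31, -3.84 and -3.44 in null samples and -2.68, -2.49 and -2.93 in wild-type samples, without overlap (difference -0.83, SE 0.20; limma adjusted p = 0.0952). Chrm1 differed by 0.50 (SE 0.48) and Chrnb1, a nicotinic subunit, by -0.23 (SE 0.16), both with overlapping groups. Those 2 turned sign in 1 alternative each, to -0.03 without wild-type sample 1 for Chrm1 and to 0.06 with spike-in scaling for Chrnb1.

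Among other choline carriers, 7 of 9 were tested and their median was -0.13, or 0.07 without null sample 3. Flvcr2, a haem carrier family member that also moves choline, differed by -0.56 (SE 0.20; limma adjusted p = 0.173) and Slc44a5 by -1.32 (SE 1.01). Slc44a5 was well above background on 1 of 3 null and 2 of 3 wild-type arrays.

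Of 13 phospholipid synthesis genes tested, 10 had positive differences and the median was 0.20, with 1 higher and 2 lower at an unadjusted p under 0.05. Pemt, which makes phosphatidylcholine by methylating phosphatidylethanolamine and so needs no free choline, differed by 0.51 (SE 0.17; limma adjusted p = 0.149). The ethanolamine kinase gene Etnk1 differed by -0.43 (SE 0.16) and Pisd, which encodes mitochondrial phosphatidylserine decarboxylase, by -0.34 (SE 0.14). Pcyt1b, which encodes the beta form of CCT, was too dim to test. Genes that release choline from phospholipid had 7 of 13 positive and a median of 0.06, or 0.005 without null sample 3. Gpcpd1, which cleaves glycerophosphocholine, differed by -0.55 (SE 0.16; adjusted p = 0.122), Enpp2, which encodes the lysophospholipase D autotaxin, by -0.84 (SE 0.29) and the phospholipase gene Pla2g4a by 0.49 (SE 0.20).

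All 9 sphingomyelin genes were tested, with 6 positive and a median of 0.09, or -0.07 without null sample 3. Sgms2, a sphingomyelin synthase that moves phosphocholine from phosphatidylcholine to ceramide, had the smallest p of all 57 genes. It read -0.48, -0.83 and -0.59 in null samples and 0.29, 0.25 and 0.14 in wild-type samples. No null sample reached the wild-type range, and the difference was -0.86 (SE 0.15; limma adjusted p = 0.0605), short of the threshold in the main fit but past it in 5 of 17 alternatives, with adjusted p between 0.0232 and 0.198. The phosphodiesterase-like gene Smpdl3b differed by 1.29 (SE 0.30; adjusted p = 0.0897) and Samd8 by -0.58 (SE 0.22). Of the genes that oxidise choline or use betaine, 6 of 9 were tested, with a median of 0.19, or 0.35 without null sample 3. The betaine transporter gene Slc6a12 read -4.25, -4.27 and -3.74 in null samples and -1.93, -3.21 and -2.79 in wild-type samples (difference -1.45, SE 0.34; adjusted p = 0.0923), while Slc6a20a, an imino acid transporter gene, differed by 0.66 (SE 0.26) and Aldh7a1, a betaine aldehyde dehydrogenase, by 0.34 (SE 0.18).

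**Figure D4:**
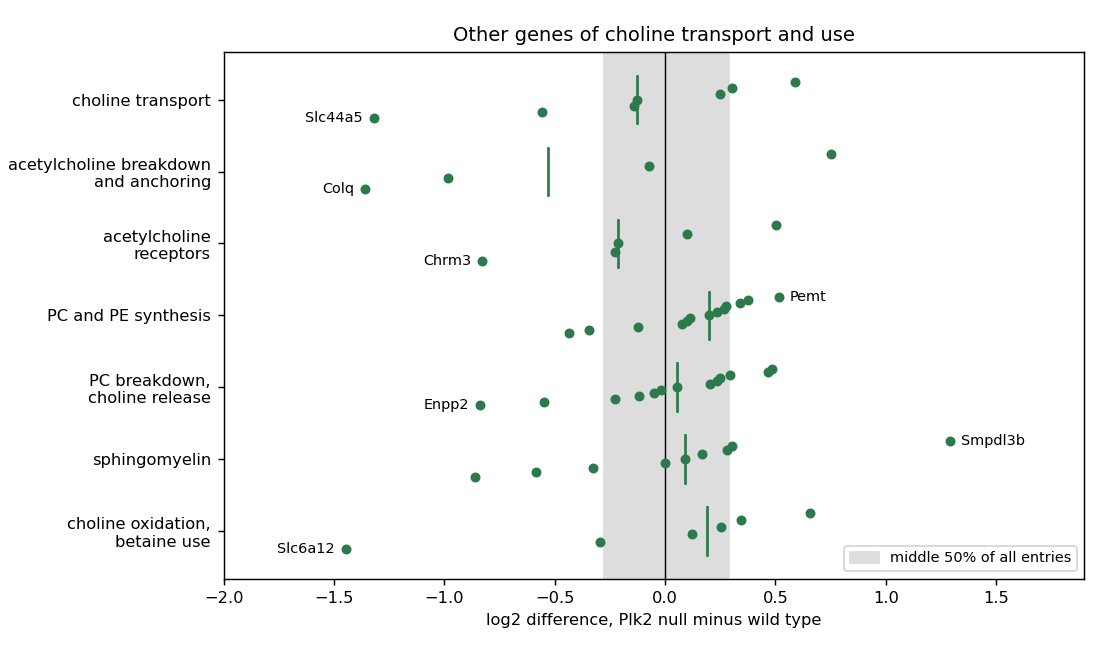
Log2 difference, Plk2 null minus wild type (horizontal axis), of the 57 tested genes in 7 lists (vertical axis; PC and PE are phosphatidylcholine and phosphatidylethanolamine); points are genes, bars are list medians, the gene farthest from 0 in each list is named and grey marks the middle 50% of all entries. List medians lie between -0.53 and 0.20, and no point reached an adjusted p of 0.05.

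The genes with profiles nearest to that of Slc5a7 were sought among 14388 named entries, by the root mean square distance between profiles centred over the 6 arrays. The Slc5a7 profile is mainly its step between the groups. The distance therefore picks entries with a large step in the same direction, and shows no joint variation within a group. The nearest was Spink1, a secreted protease inhibitor gene, at 0.80 log2 units. It read 4.41, 4.15 and 2.79 in null samples and -1.67, -2.09 and -2.29 in wild-type samples, so its null samples were more spread than those of Slc5a7. Null sample 3 was its lowest null sample and the highest for Slc5a7 (-2.04). The dopamine receptor gene Drd4 followed at 0.94, then Scrg1 at 1.02, the sterol transporter gene Abcg5 at 1.03 and B020031M17Rik at 1.05. Drd4, like Slc5a7, was not well above background on any wild-type array, so both profiles rest on wild-type values below background.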

How the data were processed

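Total RNA of 3 Plk2 null and 3 wild-type samples was amplified and labelled with Cy3, per the labels' protocols. The scans were extracted in Agilent Feature Extraction 11.0.1.1, per the file headers. The deposited intensity is the processed signal, corrected for background by that software and not normalized between arrays, per the file headers; the median spot and background intensities served for the normexp alternative. The authors' deposited table of intensities, equal in distribution across arrays, was an alternative; its tools are not stated in those sources. Its deposited p-values, ratio and signed score were not used.

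Control spots and 1119 outlier gene spots were left out, spots of a probe were averaged, and log2 signals were centred on each array's 75th percentile. Accessions matched a RefSeq table on GRCm38.p6 for 26582 of 55681 probes. A probe was kept where 3 or more of the 6 arrays had it well above background. Each gene was represented by its brightest probe, and each probe without a matched gene stood as its own entry. This gave 24609 entries with 40 missing values, none in a member. Members' SEs come from the spread of their own samples; other genes were tested by limma (version 3.58.1, R 4.3.3; lmFit, then eBayes), adjusted by Benjamini-Hochberg over all entries. On simulated arrays of 24609 entries 7 false calls were made.

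The members and lists were chosen with earlier results of these data known. Named are all members, the 3 genes of each of 7 lists with the smallest p, Plk2 as a check, and the 5 genes nearest to Slc5a7; Epcam, Cdh1, Krt8, Krt5, Krt14, Isl1, Nefm, Syt1 and Pcyt1b are named besides, chosen after their values were seen; a gene that this rule takes is not reported here. Alternatives were normexp, quantile, median and spike-in scaling, other filters, the mean of probes, other moderation, array weights, a replicate block, each array left out and the deposited table. Arrays being 3 a group limits the precision.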

Additional observations from a re-analysis of the deposited data

How the results depend on the processing

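Calls over all entries, 54 higher and 82 lower, moved under 15 of 17 alternatives. The higher and lower counts were 686 and 518 with normexp, 176 and 164 with median centring, 251 and 126 with spike-in scaling, 378 and 378 with the deposited table, 5 and 26 without the filter, 203 and 179 with probes well above background on all 6 arrays, 443 and 388 with trend and robust moderation, and 556 and 694 with array weights. The share higher among calls was 39.7%, against 51.8% with median centring, 66.6% with spike-in scaling and 57% with normexp. Leaving out 1 array gave 1 to 240 higher and 6 to 498 lower, the most without null sample 3 and the fewest without null sample 1 or wild-type sample 2. With the replicate number as a block, 2 were higher and 6 lower. Same-numbered samples also lay in the same slide column. Their deviations had correlations of -0.119, 0.0379 and -0.0183, too few values to decide whether they are paired. Of the choline pathway genes outside the members, 2 higher and 1 lower passed with normexp (Bche, Smpdl3b and Sgms2), and 1 lower, Sgms2, with the deposited table, the stricter filter, trend and robust moderation or array weights; 0 passed in the others, the block included. The Slc5a7 difference of 4.70, with wild-type values below background, was 0.96 with normexp, 1.09 with the deposited table, 4.99 with spike-in scaling and 4.53 to 4.81 with 1 array left out; the stricter filter removes it. Spike-in scaling turned Slc18a3 to 0.27, the brightest Slc44a1 probe to 0.06, the brightest Chka probe to 0.25 and Chrnb1 to 0.064. Slc18a3 and Chka changed sign in 6 alternatives each, that scaling included. Chkb changed sign in 1, to -0.03 with the deposited table. With 1 array left out Chrm1 ran between -0.031 and 0.845, negative only without wild-type sample 1. Spike-in scaling subtracts a different value from each array, so it moved the differences of these genes up by the same amount. The cause of that shift and of the other moves was not tested. Dim spots limit Slc5a7, Chat, Slc18a3 and Ache, whose lower group lies at or near background.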
